A study of Mus musculus with 32 samples.

Results

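The 36 aminoacyl-tRNA synthetase genes were taken by symbol from the 44081 genes of the combined 3′UTR count table, 20 of them cytosolic and 16 mitochondrial (symbols ending in 2). Each synthetase joins one kind of amino acid to its transfer RNA, which is the charging step that every act of translation draws on. Cytosolic enzymes charge the transfer RNAs read by the main ribosomes, including those that translate mRNA locally in dendrites. Mitochondrial enzymes are encoded in the nucleus, made in the cytosol and imported to charge the transfer RNAs of the organelle. Gars and Kars encode enzymes for both places, and Eprs encodes one protein that charges glutamate and proline. Several cytosolic enzymes sit in a multisynthetase complex held together by the scaffold proteins encoded by Aimp1, Aimp2 and Eef1e1. By the fold of the catalytic domain, synthetases are divided into class I and class II.

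The samples were 16 single hippocampal neurons of C57BL/6 mice, taken at embryonic day 18 and cultured for 15 days without any other treatment. Dendrites and soma of each neuron were taken up separately by aspiration, giving 32 libraries in 16 pairs. The mRNA was amplified through its poly-A tail by in vitro transcription (the aRNA method) in 3 rounds for neurons 1 to 4 and in 2 rounds for the other 12. ERCC spike-in RNA was added at a dilution of 1 to 4000000, except for neurons 1 and 2, for which the labels give none. The study drew neurons from several cultures and days, but the labels name neither the culture of a neuron nor the sequencer of a library, and the axon was not collected as a compartment of its own. The p-values therefore measure the spread between these neurons.

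Reads counted on 3′UTRs ranged from 646521 to 6954420 in dendrites and from 925525 to 21169974 in somas, and the somas had more reads in 15 of 16 neurons. All 10 neuronal markers passed the filter on low counts. Map2, the dendritic microtubule protein, had reads in all 32 libraries with a log2 fold change of 2.66 in dendrites over somas (adjusted p = 0.00202, edgeR). It was the 1 neuronal marker called, while 5 of the 10 had fold changes below 0 and the median of the list was -0.32. Astrocyte markers summed to a median of 66.1 CPM (reads scaled to a common library size) in dendrites (range 0 to 665) and 13.7 in somas (range 0 to 148). Gfap had a median of 0 in both. The 2 of 6 that passed the filter were Aqp4 (log2 fold change 3.23) and Slc1a3 (0.71), neither of them called. Of the other glial and vascular lists, the 6 microglial markers summed to medians of 5.16 and 0.199 CPM, the 6 oligodendrocyte markers to 14.8 and 7.14, and the 5 endothelial markers to 1.70 and 0.227. Cldn5, an endothelial marker, had no read in any library. The part of glial RNA in the values below was not tested. RNAs that are mostly kept in the nucleus were present in both compartments, summing to a median of 516 CPM in dendrites (range 1.32 to 1808) and 1796 in somas (range 33.3 to 12136) over 5 genes, and Malat1 had reads in 14 dendrites and 15 somas. Some dendrite libraries stood apart from the rest. The dendrites of neuron 15 had reads on 3888 genes, against a median of 9730 over all dendrites, and 17.1% of their exon reads on spike-ins against a median of 1.11%. The dendrites of neuron 16 had reads on 6252 genes and on 15 synthetases, with 7.55% on spike-ins, and those of neuron 12 on 7823 genes and 12 synthetases.

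Synthetase genes with at least 1 read were counted in each library of the 2 compartments. Somas held 31.75 ± 3.62 of the 36 synthetases (SD, n = 16, range 22 to 35) and dendrites held 22.8 ± 7.14 (SD, n = 16, range 7 to 32). The soma had more synthetases than the dendrites in 13 of 16 neurons, and the ranges overlapped. In neurons 2 and 5 the dendrites held 32 and the soma 31, and in neuron 8 they held 27 and 26. The paired difference was -8.94 ± 6.94 genes (SD, n = 16), read beside a difference of -2355 ± 3035 over all genes with reads. With both members of each pair sampled to the same number of reads the means were 30.6 in somas and 22.8 in dendrites, and without neurons 12, 15 and 16 they were 32.5 and 25.5. Counted from 10 reads, they were 28.6 and 16.1.

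Separated by type, the 20 cytosolic genes averaged 18.4 ± 1.26 detected per soma and 13.9 ± 4.92 per dendrite library (SD, n = 16), and the 16 mitochondrial genes averaged 13.4 ± 2.60 and 8.88 ± 2.99. The dendrites of neuron 15 had reads on 0 cytosolic and 7 mitochondrial synthetases. Among cytosolic genes, 13 had reads in all 16 somas, and among mitochondrial genes 4 did (Iars2, Lars2, Rars2 and Yars2). In dendrites, 3 genes had reads in at least 15 of 16 libraries: Aars and Hars in 15 and Lars2 in 16. Over all genes with reads in at least 15 libraries, 16.4% reached 15 of 16 dendrites.

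Summed over genes after scaling each library by the trimmed mean of M-values (TMM), cytosolic synthetases had 1038 ± 418 CPM in dendrites and 1809 ± 498 in somas (SD, n = 16). The soma sum was the higher one in 15 of 16 neurons, and neuron 2 was the exception with 1124 CPM in its dendrites and 711 in its soma. Mitochondrial synthetases summed to 380 ± 334 CPM in dendrites and 332 ± 95.7 in somas, and the soma sum was higher in 8 of 16 neurons. The highest mitochondrial sum, 1469 CPM in the dendrites of neuron 15, came mostly from Rars2, which had 1271 CPM there. CPM are shares of a library, so they do not give the amount of RNA in a compartment. On the spike-in scale, for which neurons 1 and 2 were left out, exon counts had a median log2 fold change of -4.15 over all genes, against -1.28 with TMM.

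**Figure D1:**
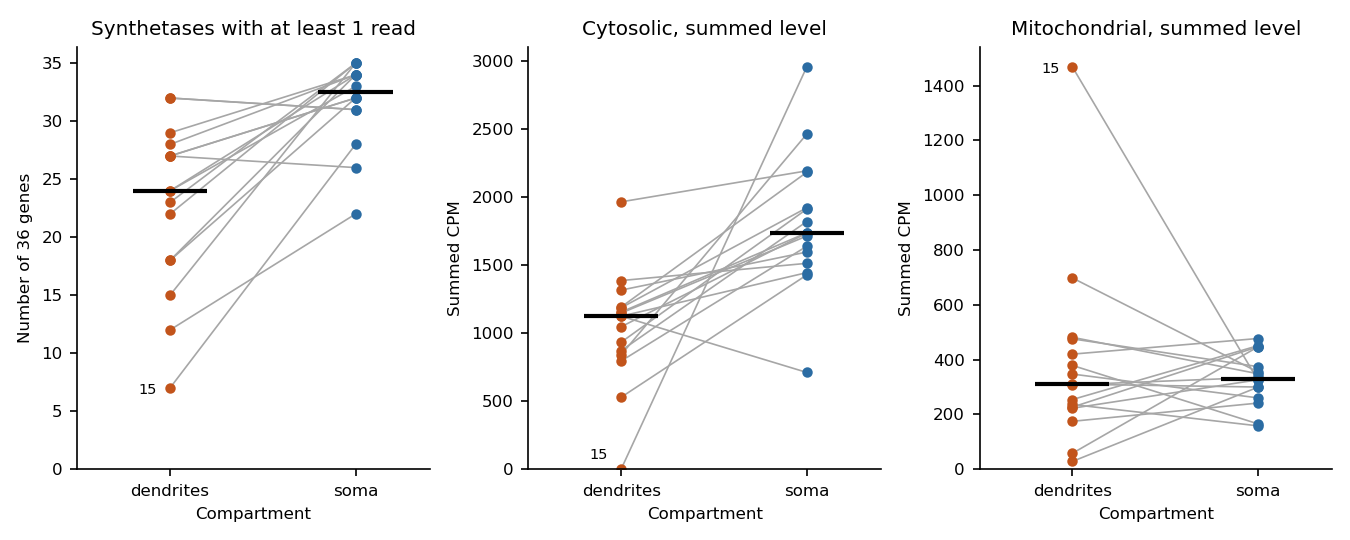
Synthetases with at least 1 read (left), summed CPM of the cytosolic genes (middle) and summed CPM of the mitochondrial genes (right) in the dendrites and soma of each neuron. Lines join the compartments of 1 neuron, bars are medians and the number marks the dendrites of neuron 15. Detected genes had medians of 24 in dendrites and 32.5 in somas, and the medians of the summed mitochondrial level were 309 and 330 CPM.

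**Figure D2:**
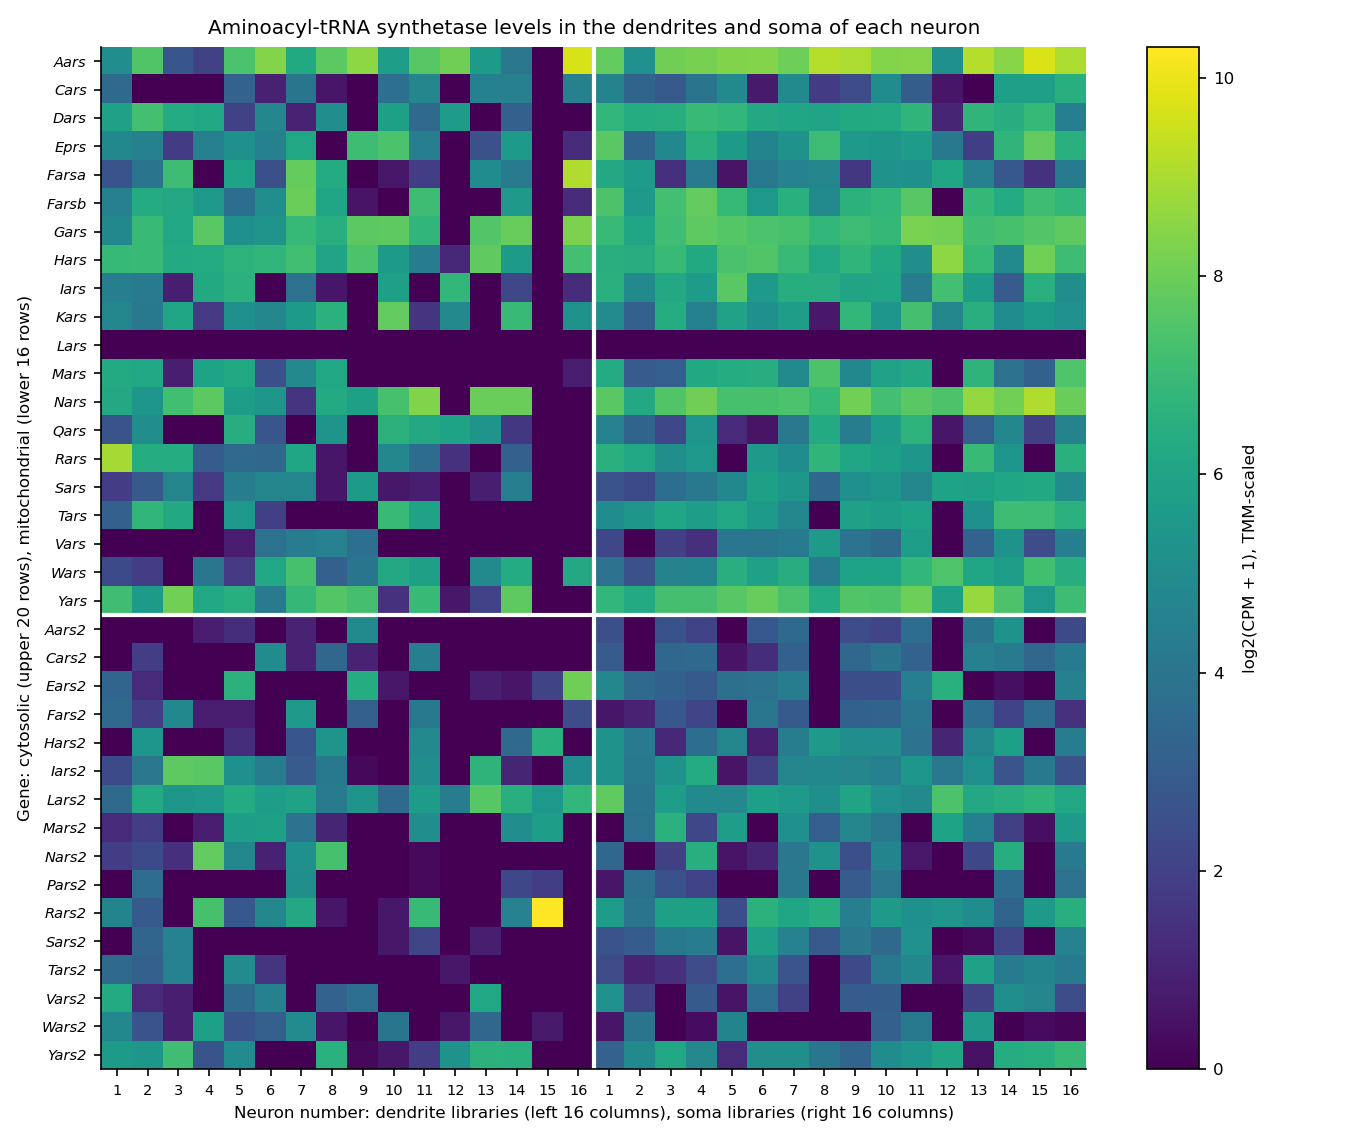
Level of each of the 36 genes, as log2(CPM + 1), in the 16 dendrite and the 16 soma libraries, with neurons numbered along the horizontal axis and cytosolic genes above the white line. Dark cells are libraries without reads. They are more frequent on the dendrite side, while Lars2 (mitochondrial leucine) has reads in every column and Lars has none in any.

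Dendrites and somas were then compared gene by gene with edgeR's quasi-likelihood test, with the neuron as a block and Benjamini-Hochberg adjustment over 10880 genes that had at least 1 read in at least 16 libraries. Of the 36 synthetases, 33 passed that filter (19 cytosolic and 14 mitochondrial). The other 3 were Lars, which is listed at 0 in every library of the table, Aars2 with reads in 15 libraries and Pars2 with reads in 14. Vars, the cytosolic valine enzyme, and Sars2, the mitochondrial serine enzyme, were called higher in somas at an adjusted p of at most 0.05. None was called higher in dendrites. Thus 2 of 33 were called in the soma direction, where 5.71% of all genes tested were called (621 genes), and 0 of 33 in the dendrite direction, where 0.827% were called (90 genes). At an unadjusted p under 0.05, 9 of 19 cytosolic and 4 of 14 mitochondrial genes lay on the soma side, against 26.7% of all genes tested.

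The number called depended on the test and the scaling. DESeq2 called 20 of 33 in somas (46.2% of all genes), limma voom 9 (14.8%) and edgeR with median-of-ratios size factors 3 (9.26%), with Vars and Sars2 among them each time. Without neuron 5, whose dendrites held more genes than its soma, edgeR called 4 (8.93% of all genes): Iars, Vars, Sars2 and Tars2. It called 0 members without neurons 12 and 15 (2.92%), without neurons 12, 15 and 16 (0.513%) and without the block (0.708%). It also called 0 with the median gene set near 0 (0.846%) and without a filter beyond 1 read (0.46%). The same held with at least 10 reads in 16 libraries (2.55%) and on exon counts (2.62%), 2 fits in which Sars2 was not tested. With exon counts scaled by the spike-ins, which leaves out neurons 1 and 2, 26 of 31 members tested were called in somas, where 64.4% of all genes were called. In the dendrite direction 0 members were called in each of these fits, where the share of all genes called ran from 0.0482% without a filter to 4.26% with DESeq2, 5.04% with the median gene near 0 and 5.97% with limma voom.

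Log2 fold changes of dendrites over somas lay below 0 for 32 of the 33 genes, and so did those of 78.8% of all genes tested. By mean CPM the soma was the higher compartment for fewer of them, 17 cytosolic and 9 mitochondrial genes of the 35 with reads. The median was -1.94 over cytosolic and -1.95 over mitochondrial synthetases, and -1.49 over all genes tested, so that the list medians stood at -0.44 and -0.45 relative to the median gene on the log2 scale. The mitochondrial one turned to 0.011 with limma voom, 0.29 without the block and 0.66 on exon counts. The cytosolic one was -0.96, -0.85 and -0.54 in those fits. On exon counts 11 mitochondrial genes were tested, and Sars2, Mars2 and Ears2 were not among them. Without a filter beyond 1 read, the cytosolic and mitochondrial medians were -1.80 and -1.96 relative to the median gene. Relative to the median gene, 23 of the 33 were lower. In a fit rescaled to put the median gene near 0, the list medians were -0.44 and -0.50. By class, the median was -1.92 over 18 class I genes and -1.94 over 15 class II genes. Of 35 synthetases with reads, 30 were higher in the soma in more neurons than in the dendrites, 4 were even and 1 (Wars2) went the other way. In all 35 genes the dendrite and soma values overlapped.

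**Figure D3:**
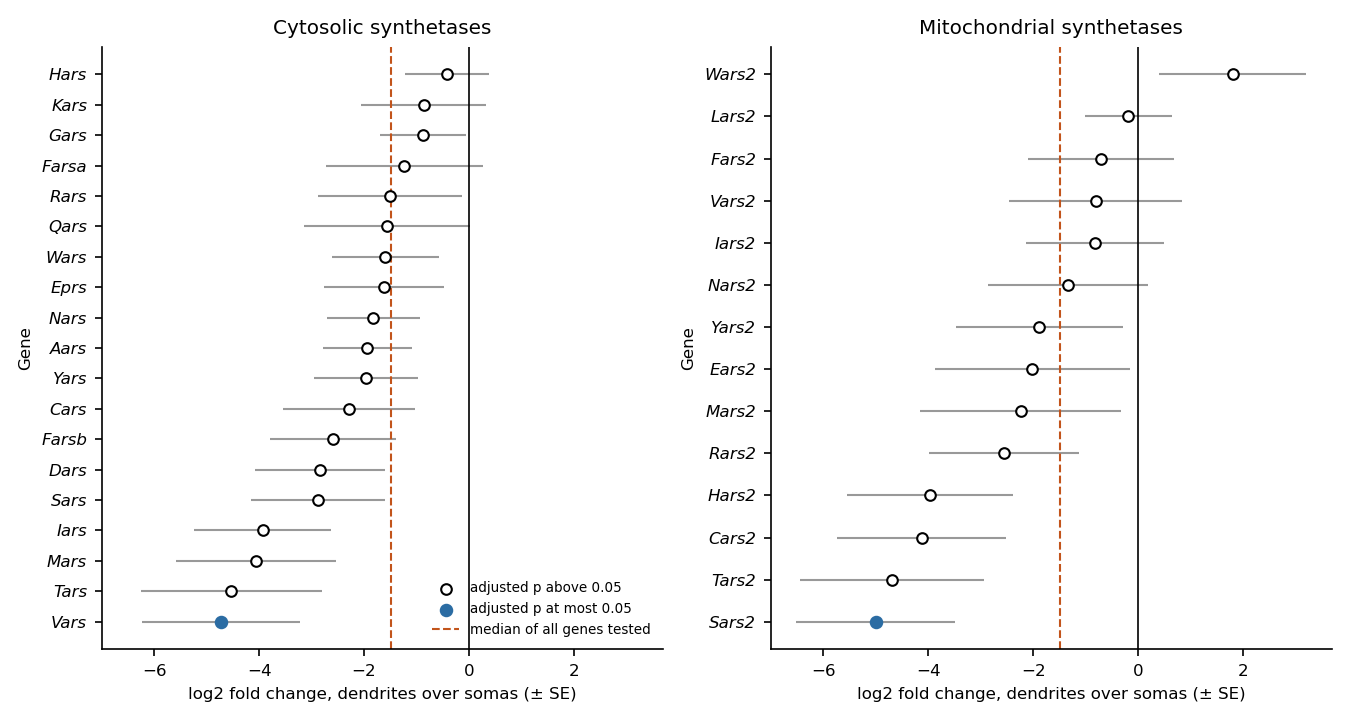
Log2 fold change of dendrites over somas with its SE for the 19 cytosolic (left) and 14 mitochondrial (right) synthetases tested, with 16 neurons as pairs. Filled points passed an adjusted p of 0.05, the dashed line is the median of all genes tested at -1.49, and only Wars2 lies above 0, at 1.81 with an SE of 1.40.

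Vars (chr17:35000987-35016322 on the plus strand, mm10), a class I enzyme, had no read in 11 of 16 dendrite libraries. The other 5 had 0.773, 12.6, 13.3, 19.1 and 23.0 CPM, for a median of 0 over all 16. In somas the lowest value was 0, the median 12.5 and the highest 52.5 CPM, with reads in 14. The 5 dendrite libraries with reads were those of neurons 5 to 9, and all 5 lay below the highest soma. The soma was the higher compartment in 13 of the 14 neurons with reads, and the log2 fold change was -4.73 ± 1.50 (SE, adjusted p = 0.0467, edgeR). Without neurons 12 and 15 the fold change was -4.69 (adjusted p = 0.0776), and without neuron 16 as well it was -4.05 (adjusted p = 0.176, edgeR). The call was also lost on exon counts (log2 fold change -3.33, adjusted p = 0.163).

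Sars2 (chr7:28741992-28753871 on the plus strand), a class II enzyme, also had reads in 5 dendrites, with 0.580, 0.809, 3.43, 9.22 and 22.9 CPM. Its somas ranged from 0 to 54.8 CPM with a median of 8.85 and reads in 14 libraries. Both groups thus held zeros, and the dendrites with reads were those of neurons 2, 3, 10, 11 and 13. The soma was higher in 11 of 14 neurons with reads, and the log2 fold change was -5.00 ± 1.51 (SE, adjusted p = 0.0381, edgeR). Mean levels were 2.31 ± 5.98 CPM in dendrites and 13.9 ± 15.1 in somas (SD, n = 16), and without the block the fold change was -2.60 on the log2 scale. Without neurons 12 and 15 it was -5.25 (adjusted p = 0.0519), and without neuron 16 as well -4.68 (adjusted p = 0.122, edgeR).

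The cytosolic genes next in order of p did not pass the adjusted threshold. Iars, the isoleucine enzyme of the multisynthetase complex (chr13:49682100-49734267, plus strand), ranged from 0 to 114 CPM in dendrites with a median of 2.62, and from 6.90 to 206 in somas with a median of 66.1. Every soma had reads and 5 dendrites had none, and the soma was the higher one in 15 of 16 neurons. Its log2 fold change was -3.93 ± 1.31 (SE, adjusted p = 0.0560, edgeR). It passed in the edgeR fit without neuron 5 (adjusted p = 0.0432) and with median-of-ratios size factors (adjusted p = 0.0380).

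Mars, the methionine enzyme of the same complex, which also charges the initiator transfer RNA, ranged from 0 to 78.95 CPM in dendrites (median 0.779) and from 0 to 179 in somas (median 67.3). Somas were the higher compartment in 14 of 15 neurons with reads, and the log2 fold change was -4.06 ± 1.53 (SE, adjusted p = 0.0810, edgeR). Tars, which charges threonine, had medians of 0 CPM in dendrites (range 0 to 122) and 52.5 in somas (range 0 to 139). It had reads in 7 dendrites and 14 somas, and 11 of 14 neurons had the higher value in the soma. Its log2 fold change was -4.53 ± 1.72 (SE, adjusted p = 0.0835, edgeR).

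Dars, the aspartate enzyme of the complex, stood nearer to the middle of the list. Its dendrites ranged from 0 to 149 CPM with a median of 18.6, its somas from 1.09 to 124 with a median of 83.4, and the soma was higher in 14 of 16 neurons. The log2 fold change was -2.84 ± 1.24 (SE, adjusted p = 0.121, edgeR). Over the 7 complex enzymes tested the median was -1.61, with 0 called, and over the scaffolds Aimp1, Aimp2 and Eef1e1 it was -1.55, with 0 of 3 called and values of -1.57 for Aimp1 and -1.55 for Eef1e1.

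At the other end of the cytosolic genes, Hars, the histidine enzyme, ranged from 0 to 222 CPM in dendrites with a median of 90.9, and from 29.1 to 380 in somas with a median of 112. Only the dendrites of neuron 15 lacked reads. The compartments were evenly balanced, with the soma higher in 8 neurons and the dendrites in 8, and the log2 fold change was -0.43 ± 0.80 (SE, adjusted p = 0.721, edgeR). It turned to 1.07 when the median gene was set near 0 and to 0.13 without neurons 12, 15 and 16. Both genes that serve cytosol and mitochondria lay near it, Kars at -0.86 ± 1.19 and Gars at -0.88 ± 0.82 (SE), with adjusted p of 0.616 and 0.451 in the same edgeR fit.

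The remaining cytosolic genes had log2 fold changes between -2.88 and -1.24, none of them called. Sars (serine, -2.88), Farsb (the β subunit for phenylalanine, -2.58) and Cars (cysteine, -2.28) were the lower ones, followed by Yars (tyrosine, -1.97), Aars (alanine, -1.94) and Nars (asparagine, -1.82). Eprs (-1.61), Wars (tryptophan, -1.59), Qars (glutamine, -1.55), Rars (arginine, -1.51) and Farsa (the α subunit for phenylalanine, -1.24) lay close to the median gene. The value of Farsa moved with the processing, to -4.23 on exon counts (adjusted p = 0.0879, edgeR) and 1.54 without the block, and its dendrites had 1494 reads on the 3′UTR against 236 on exons. Aars is uncertain, since 1326 of the 2463 bases of its 3′UTR lie in Exosc6, a gene on the same strand. No other member had a stretch of at least 100 bases in its 3′UTR with at least 95% identity to another gene's. The 3′UTRs of Vars, Mars and Qars have 70, 76 and 98 bases, so the search could not find such a stretch in them.

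**Figure D4:**
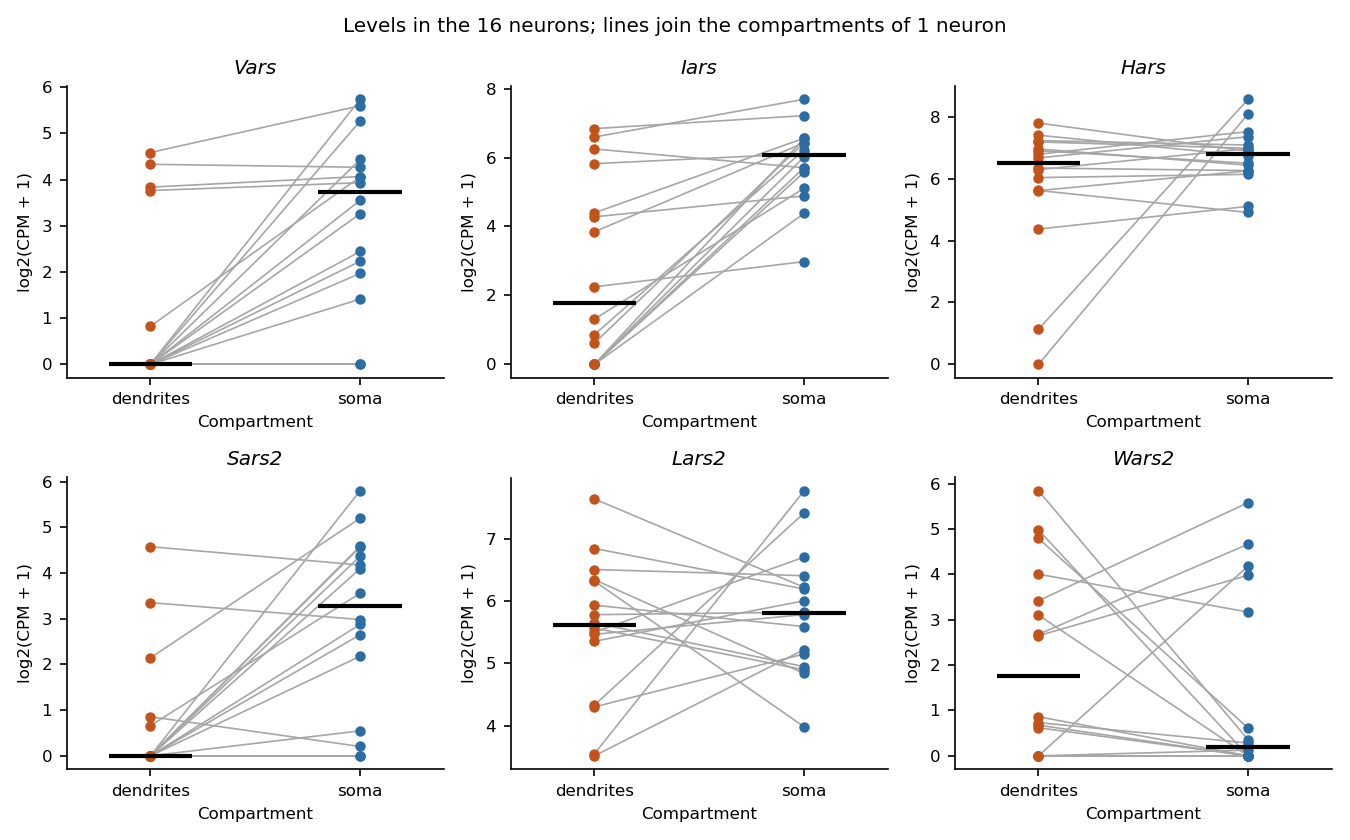
Level, as log2(CPM + 1), of Vars, Iars, Hars, Sars2, Lars2 and Wars2 in the dendrites and soma of the 16 neurons, with grey lines joining the compartments of 1 neuron and black bars at the medians. Vars and Sars2 have a dendrite median of 0, Hars and Lars2 have lines crossing in both directions in equal numbers, and Wars2 has its higher median in dendrites, 3.04 against 0.154 CPM.

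Among mitochondrial genes, Lars2, the leucine enzyme (chr9:123366927-123462666, plus strand), was the member with reads in all 32 libraries. It ranged from 10.4 to 199 CPM in dendrites with a median of 47.9, and from 14.8 to 218 in somas with a median of 54.9. The 2 ranges nearly coincided, and each compartment was the higher one in 8 neurons. Its log2 fold change was -0.18 ± 0.84 (SE, adjusted p = 0.892, edgeR), with a change of sign on exon counts (0.48) and without neurons 12 and 15 (0.011) or neurons 12, 15 and 16 (0.18). Reads of Lars2 counted on the last 500 bases of its annotated 3′ ends came to 28.1% of its 3′UTR count in dendrites and 41.7% in somas. For Eprs the same ratio was 105% and 113%, so end reads are not always part of the 3′UTR count. Where the other Lars2 reads lay was not tested.

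Wars2, the tryptophan enzyme (chr3:99141068-99239186, plus strand), was the one member with a positive fold change. In dendrites it ranged from 0 to 56.5 CPM with reads in 12 libraries, and in somas from 0 to 47.0 CPM with reads in 9. The dendrites were higher in 9 neurons and the soma in 5, with no reads in the other 2. The log2 fold change was 1.81 ± 1.40 (SE, adjusted p = 0.363, edgeR), and it stayed above 0 in all 12 alternative fits of Wars2, from 0.50 without the block to 4.62 in the neurons of 3 rounds, without passing in any.

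Threonine and cysteine enzymes of mitochondria, Tars2 and Cars2, had dendrite medians of 0 CPM. Tars2 reached 30.1 CPM in dendrites and 59.4 in somas (soma median 8.99), with reads in 6 dendrites and 15 somas, and its log2 fold change was -4.69 ± 1.75 (SE, adjusted p = 0.0791, edgeR). Cars2 reached 31.3 CPM in dendrites and 21.75 in somas (soma median 9.02), with reads in 6 and 13 libraries, and its log2 fold change was -4.13 ± 1.62 (SE, adjusted p = 0.0908, edgeR). The ranges of both genes began at 0 in both compartments. Tars2 passed without neuron 5 (adjusted p = 0.0413) and in the neurons of 2 rounds (adjusted p = 0.0412).

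Hars2, the mitochondrial histidine enzyme, differed in its values from Hars. Its dendrites ranged from 0 to 93.3 CPM with a median of 0, its somas from 0 to 55.8 with a median of 19.6, and the soma was higher in 13 of 16 neurons. Its log2 fold change was -3.97 ± 1.58 (SE, adjusted p = 0.0954, edgeR). Rars2 (arginine) ranged from 0 to 1271 CPM in dendrites with a median of 6.38, and from 4.61 to 98.96 in somas with a median of 46.0. The highest dendrite value was that of neuron 15, and it lay above every soma. The log2 fold change of Rars2 was -2.56 ± 1.43 (SE, adjusted p = 0.209, edgeR). It was -0.42 on exon counts and 1.18 without the block, and the mean level was 107 ± 314 CPM in dendrites and 47.1 ± 28.4 in somas (SD, n = 16).

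The other mitochondrial genes tested were not called. Mars2 (-2.23), Ears2 (glutamate, -2.01) and Yars2 (-1.88) lay below the median gene, and Nars2 (-1.34), Iars2 (-0.82), Vars2 (-0.81) and Fars2 (-0.70) above it. Mars2 and Ears2 were not tested on exon counts. Mars2 had 455 reads on the 3′UTR against 17 on exons in dendrites, and 2341 against 541 in somas. Ears2 had 1031 against 406 in dendrites and 1137 against 118 in somas. Aars2 had reads in 4 dendrites and 11 somas, and Pars2 (proline) in 5 dendrites and 9 somas. Fars2 and Vars2 were higher in the soma in 7 neurons and in the dendrites in 7.

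Where an amino acid has both enzymes, their fold changes can be set side by side. Valine had -4.73 for Vars and -0.81 for Vars2, and isoleucine had -3.93 for Iars and -0.82 for Iars2. Histidine ran the other way, with -0.43 for Hars and -3.97 for Hars2, and so did serine, with -2.88 for Sars and -5.00 for Sars2. Threonine had -4.53 and -4.69, and tyrosine -1.97 and -1.88. The differences between such genes were not tested, and single SEs ranged from 0.80 for Hars to 1.92 for Mars2.

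To describe how the balance varied between cells, the dendritic read fraction was computed for each neuron with at least 10 reads of a gene, as the CPM in dendrites over the sum of both compartments. Its median was 29.8% over 19 cytosolic and 33.4% over 14 mitochondrial genes, beside 34.4% over 10471 genes. The spread between neurons was wide, with a median SD of 28.3 percentage points for cytosolic, 37.7 for mitochondrial and 32.6 for all genes. Hars had 43.8% ± 19.6 (SD, n = 16), Lars2 47.4% ± 22.9 (SD, n = 16), Vars 15.1% ± 21.9 (SD, n = 12) and Sars2 10.7% ± 21.9 (SD, n = 12). Dars ranged from 0 to 97.9%, with its highest value in neuron 12, and up to 64.2% without that neuron.

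Rounds of amplification are the batch that the labels give. With an interaction term for 3 against 2 rounds, 0 members and 0 of all genes passed the adjusted threshold in edgeR, and 2.65% of all genes had an unadjusted p under 0.05. Among members, Tars2 (log2 fold change -6.63 with 2 rounds and 1.60 with 3, unadjusted p = 0.0186 in the edgeR interaction fit) and Mars (-6.44 and 0.17, unadjusted p = 0.0303) were the ones under that level, both with an adjusted p of 1. Within the 12 neurons of 2 rounds, Tars2 was called (2.88% of all genes were called in somas) and Vars (adjusted p = 0.127) and Sars2 (adjusted p = 0.0503) were not. Within the 4 neurons of 3 rounds, 0 members were called (0.00758% of all genes).

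Use of 3′ ends was compared in genes with at least 10 reads on their top 2 ends in both compartments of at least 5 neurons. An end is the last 500 bases of an annotated 3′UTR isoform, and the quantity is the share of the higher-numbered of the top 2 ends, since the table gives the ends as numbers. Of 17 synthetases tested, 0 had p under 0.1 in the exact two-sided signed-rank test, against 8.44% of 3508 genes, and no gene passed after adjustment. For 8 of the 17, at most 4 neurons differed in the share between compartments, so that the test could not give a p below 0.125. Of the 9 that could, 0 had p under 0.1, against 13.9% of 2123 such genes. The lowest p was 0.125 (exact signed-rank test), for Farsa and Wars. In both genes 4 neurons differed, so this exact test could go no lower. The study lists Farsa among its genes with differential localization of 3′ isoforms, from its own signed-rank test at p under 0.1. Farsa had 55.4% ± 48.8 of its reads on the higher-numbered end in dendrites and 10.7% ± 23.8 in somas (SD, n = 5), with the dendrite share higher in 4 neurons and equal in 1. Wars had 0.131% ± 0.413 and 1.29% ± 2.65 (SD, n = 10), so nearly all its reads lay on 1 end in both compartments.

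Promoter sequence was set beside these values because several cytosolic synthetases are known targets of ATF4, a transcription factor of the amino acid response. The motif TGATGCAA, which belongs to the composite elements that ATF4 binds with its partners, was searched on both strands from 250 bases before to 50 bases after the RefSeq start (GRCm38.p6). It was found in 294 of 32851 promoters (0.895%). Among the 27 synthetases with a promoter entry (13 cytosolic and 14 mitochondrial) it was found in 4, all cytosolic. The windows of 3 of them are printed, each of 30 bases, 5′ to 3′ in the direction of the gene, with the motif or its reverse complement in capitals.
Iars, chr13:49682126-49682155, plus strand: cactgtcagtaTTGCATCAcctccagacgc
Tars, chr15:11399655-11399684, minus strand: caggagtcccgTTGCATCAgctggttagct
Yars, chr4:129189895-129189924, plus strand: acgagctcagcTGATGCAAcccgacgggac

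The motif began at -15 from the start in Tars, at 8 in Iars and at 4 in Yars. Log2 fold changes of these 3 genes were -4.53, -3.93 and -1.97, and none was called. A match in these letters is a description and not a measured binding site. Of ATF4 and its target genes, 20 of 28 were tested with a median of -1.44. Of these, 1 was called higher in somas, where 5.71% of all genes tested were called. It was Chac1, a glutathione-degrading enzyme, with a log2 fold change of -6.04 (adjusted p = 0.0336, edgeR).

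Other genes on the path from transfer RNA to protein were read from the same fit. The list of aminoacyl-tRNA editing and selenocysteine genes had a median of -2.97 over 7 tested with 0 called. Ptrh2 (-4.11) and Dtd1 (-2.79) had its lowest p-values.

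The eEF1 complex, which delivers charged transfer RNAs to the ribosome, had a median of 0.30 over 5 genes with 0 called in either direction. Eef1g, a subunit of the exchange factor, had medians of 603 CPM in dendrites and 267 in somas, and 15 of 16 neurons had the higher value in dendrites. Its log2 fold change was 0.92 ± 0.48 (SE, adjusted p = 0.185, edgeR), and that of Eef1a1, which binds the charged transfer RNA, was 0.41 ± 0.54 (SE, adjusted p = 0.595). Cytosolic ribosomal protein genes had a median of 1.05 over 84 tested, with 8 called higher in dendrites (Rpl39, Rpl41, Rplp1, Rps12, Rps21, Rps24, Rps28 and Rps29) and 0 in somas. Rps29, for example, had medians of 929 and 197 CPM and was higher in the dendrites of all 16 neurons. Its log2 fold change was 2.16 ± 0.49 (SE, adjusted p = 0.0124, edgeR).

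On the mitochondrial side, translation factors had a median of -2.42 over 11 tested with 0 called, and Tsfm, an elongation factor, had -3.53 ± 1.17 (SE, adjusted p = 0.0557, edgeR). Mtrf1, a release factor, had -4.59 ± 1.92 (SE, adjusted p = 0.110 in the same edgeR fit). Mitochondrial ribosomal protein genes had a median of -1.46 over 79 tested, close to the median gene. Of these, 4 were called higher in somas (Mrpl22, Mrpl32, Mrpl40 and Mrpl44), where 5.71% of all genes tested were called. Mrpl32 was higher in the soma of all 16 neurons, and its log2 fold change was -5.65 ± 1.24 (SE, adjusted p = 0.0108, edgeR). RNA read from the mitochondrial genome took more of the library in dendrites than in somas in 15 of 16 neurons, with medians of 13.5% and 1.05%.

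**Figure D5:**
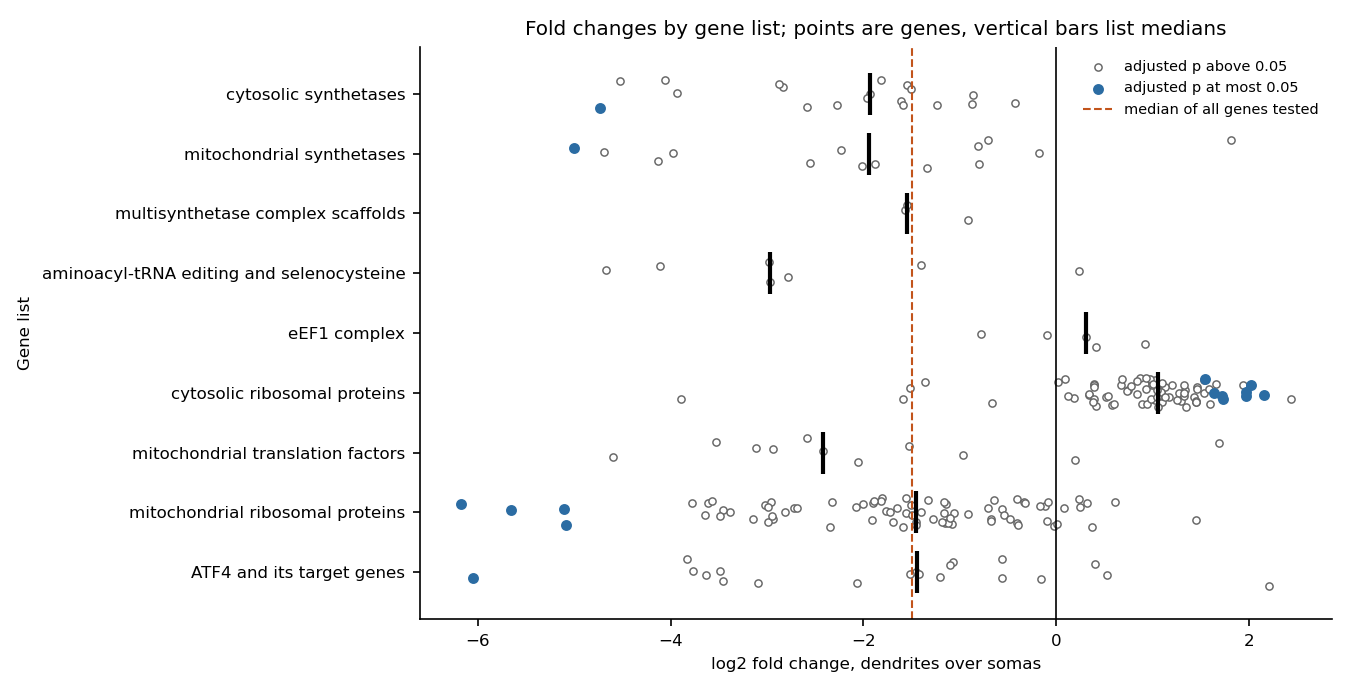
Log2 fold change of dendrites over somas for every gene tested in 9 lists, with list medians as vertical bars and the median of all genes tested as the dashed line at -1.49. The cytosolic and mitochondrial synthetases have medians of -1.94 and -1.95, while the medians of the eEF1 complex and the cytosolic ribosomal proteins lie at 0.30 and 1.05, and 8 of the latter passed in the dendrite direction.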

How the data were processed

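According to the study's methods and the submitters' processing notes, the authors trimmed the reads, aligned them to mm10 with STAR 2.4.0 and counted uniquely mapped reads by strand with VERSE. The deposited values are raw read counts on the merged 3′UTRs of each gene, on single 3′ ends and, in files per library, on exons and ERCC spike-ins. Reads carry no molecular identifiers. Counts were compared with edgeR 4.0.16 in R 4.3.3 (TMM, quasi-likelihood test, robust fit, neuron as block), with DESeq2 1.42.0 and limma 3.58.1 as alternatives, and other values came from Python 3.11 and SciPy 1.17.1. The edgeR fit was also tested on simulated data. Gene positions come from GENCODE on GRCm38, 3′UTR copies from BLAST 2.17.0 and promoters from RefSeq. Both compartments come from 1 cell, which is the pairing: deviations from the compartment means correlated at 0.0887 ± 0.0772 (SD, n = 16) within a neuron and at -0.00559 ± 0.0526 (SD, n = 240) between neurons. The genes, lists and tests were chosen with earlier results of these data known. Full values are given for members called, the 5 of each type with the lowest p, the extremes of fold change and members with reads in all dendrites. From other lists, called genes or else those with the 2 lowest p-values were named. A list of genes and a promoter window are not reported here.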

Additional observations from a re-analysis of the deposited data

Results flagged for a closer look

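Lars, the cytosolic leucine enzyme, was singled out because it had reads in data outside the main table. It is listed at 0 in all 32 libraries of the combined 3′UTR table, while the exon counts hold 7527 reads on it, 1142 in dendrites and 6385 in somas. Reads were present on its exons in 15 dendrites and 16 somas. The table of single 3′ ends holds 783 reads in dendrites and 3970 in somas on its 1 end. In the edgeR fit of exon counts its log2 fold change was -2.10 (adjusted p = 0.246). Why the combined table lists it at 0 was not tested.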

How the results depend on the processing

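The 2 calls rested on the processing. Members called higher in somas numbered 20 with DESeq2 (46.2% of all genes called in that direction), 9 with limma voom (14.8%), 4 without neuron 5, 1 in the neurons of 2 rounds and 26 with spike-in scaling of exon counts (64.4%). There were 0 with the median gene set near 0, without a filter beyond 1 read and in the neurons of 3 rounds. The number was also 0 with at least 10 reads in 16 libraries and on exon counts, 2 fits in which Sars2 was not tested. It was 0 too without neurons 12 and 15 or neurons 12, 15 and 16, alternatives chosen after seeing the data. With no replicate block for the pairing by neuron there were also 0 (0.708% of all genes), and the mitochondrial median was 0.070. It was -0.50 with the median gene near 0 and -4.17 with spike-in scaling, where the cytosolic median was -5.04. Calls in dendrites numbered 0 in every fit, beside 0.0228% (3 rounds) to 5.97% (limma voom) of all genes. Mean numbers of detected genes and median dendritic read fractions moved by less than 1 SD between neurons, and 3′ end shares and the interaction with rounds had 0 calls under each alternative tried. Among alternative values of single genes, 348 kept direction and side of the threshold, 52 gained a call, 15 lost one and 32 changed sign, none of the latter called.

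With the median gene near 0, which by construction shifts all genes by about the same amount, log2 fold changes of opposite sign were 0.24 (Farsa), 0.62 (Gars), 1.07 (Hars), 0.62 (Kars), 0.71 (Fars2), 0.67 (Iars2), 1.31 (Lars2), 0.057 (Nars2) and 0.54 (Vars2). With no replicate block they were 1.54 (Farsa), 0.12 (Qars), 0.96 (Ears2), 0.28 (Fars2), 0.79 (Iars2), 0.64 (Nars2), 1.18 (Rars2) and 0.51 (Vars2). In the neurons of 3 rounds they were 0.21 (Hars), 0.17 (Mars), 0.55 (Rars), 1.64 (Fars2), 0.47 (Iars2), 0.032 (Lars2), 0.62 (Nars2), 1.60 (Tars2) and 0.64 (Yars2). For Lars2 they were also 0.18 with at least 10 reads, 0.48 on exon counts and 0.011 without neurons 12 and 15. Without neurons 12, 15 and 16 they were 0.13 (Hars), 0.18 (Lars2) and 0.34 (Vars2). The cause of the changes other than those from the shift was not tested, and the low counts of many members in dendrites limit what any fit can show.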
